A study of Mus musculus with 62 samples.

Results

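Txnip and 3 related alpha-arrestin genes, Arrdc2, Arrdc3 and Arrdc4, were followed through the 62 mouse RNA-seq libraries of this study of ChREBP in skeletal muscle. The genes were found by symbol and were present in all 4 deposited tables. They were 4 of 29239 symbols in the chow table, 4 of 21936 in the table of normoxia, hypoxia and high-fructose diet, 4 of 21039 in the AAV table and 4 of 17898 in the C2C12 table. Txnip, Arrdc3 and Arrdc4 had 1 entry in each table. Arrdc2 had a second chow entry on an alternative patch sequence, with a mean of 0.683 FPKM (fragments scaled to gene length and to the size of the library) against 5.82 FPKM for its main entry, and the main entry was used.

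ChREBP is encoded by Mlxipl, and its relative MondoA by Mlxip. Both are basic helix-loop-helix leucine zipper factors that respond to phosphorylated sugars, bind DNA together with Mlx, and switch on genes that carry a carbohydrate response element. Txnip and Arrdc4 are known targets of this pair in many cell types, and in muscle MondoA is regarded as the main factor that couples glucose entry to Txnip. TXNIP binds and inhibits thioredoxin and promotes internalisation of the glucose transporters GLUT1 and GLUT4, and ARRDC4 also lowers glucose uptake. ARRDC3 is an adaptor that links ubiquitin ligases of the NEDD4 family to membrane cargo. ARRDC2 is a less studied adaptor of the same family.

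The muscle knockout, ChMKO, carries floxed ChREBP alleles and Mck-cre, and its controls, F/F, are floxed littermates without Cre. Mck-cre is active in skeletal muscle and heart, and other cells of the muscle keep the gene. All mice were young adult males at the start, and the time of day and the feeding state at collection were not stated in the sources used here. On chow, gastrocnemius (GC), a mostly fast muscle, and soleus (SOL), which holds many slow fibers, were taken from 5 mice per genotype. By the numbers in the labels both muscles came from the same 10 mice. In a second experiment GC came from 4 mice per genotype under each of normoxia (Norm), hypoxia (Hypo, 2 weeks at a simulated 5500 m) and a high-fructose diet (HFrD, 68% fructose for 3 months). The Norm mice served as the reference for both treatments, so that the hypoxia and diet comparisons share their controls. Mice given the diet or chow were matched for age and weight at its start, as the study's methods state, but whether the Norm mice used here were that chow group was not stated. In C57BL/6J mice, GC was injected with AAV9 carrying mouse ChREBP under the CMV promoter (AAV-MLXIPL, n = 5) or with a GFP control vector (AAV-CON, n = 5) and taken after 14 days. That promoter is not restricted to muscle fibers. C2C12 is a mouse myoblast line that fuses into myotubes. A ChREBP-overexpressing stable line (OE, n = 4) and an empty-vector line (CON, n = 4) were sequenced at day 7 of differentiation, and each condition was 1 puromycin-selected line.

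The members lie on 4 chromosomes. In GRCm39, Txnip spans chr3:96465273-96469199 on the plus strand, Arrdc4 chr7:68386743-68398989 on the minus strand, Arrdc2 chr8:71287773-71292364 on the minus strand and Arrdc3 chr13:81031503-81044161 on the plus strand. Their sequences just before the gene start are shown for the 2 genes with a match to the sites that Mondo factors are known to bind. These sequences come from RefSeq on GRCm38.p6, and the 250 bases before each annotated start were searched on both strands for the E-box CACGTG and for a pair of CACGNG boxes with 5 bases between them. The second motif was chosen after the Txnip sequence had been seen, and CACGTG is itself a form of CACGNG. Capitals mark the matching bases, each sequence is read 5′ to 3′ on the strand of the gene, and the stretches are chr3:96557832-96557928 for Txnip and chr7:68749386-68749471 for Arrdc4.
Txnip: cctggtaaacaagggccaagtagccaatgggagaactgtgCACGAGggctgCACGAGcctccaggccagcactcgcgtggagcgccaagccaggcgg
Arrdc4: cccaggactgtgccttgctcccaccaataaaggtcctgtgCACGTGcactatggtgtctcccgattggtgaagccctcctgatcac
The Txnip pair lies upstream of the gene at chr3:96557872-96557888, 85 bases before the start. The Arrdc4 E-box lies upstream at chr7:68749426-68749431, 193 bases before the start. Of 32851 windows of the same length, 0.0457% hold the spaced pair and 6.02% hold the E-box. Neither motif was found in the 1 window of Arrdc2 or the 3 windows of Arrdc3. These are matches of letters only.

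Levels are given as FPKM, and differences as log2 fold changes of FPKM + 1 with the standard error of the limma fit. A gene was called when its adjusted p was under 0.05 over all genes tested in that comparison. The 24 Norm, Hypo and HFrD libraries held 14473170 to 23460515 reads. In these libraries Txnip had 4541 to 15474 reads, Arrdc2 637 to 2336, Arrdc3 644 to 5299 and Arrdc4 132 to 445. Depth is unknown for the other tables. HFrD libraries were deeper (17228116 to 23460515 reads) than Norm libraries (14473170 to 18981600 reads). The share of all tested genes called is given beside the first count for each comparison, and it ranged from 0% to 64%.

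The mean of Mlxipl, the targeted gene, followed the labels in every experiment. In chow GC it was 20.4 to 30.3 FPKM in F/F mice and 12.5 to 18.5 FPKM in ChMKO mice, without overlap (log2 fold change -0.63 ± 0.13, adjusted p = 0.41). In chow SOL it was 43.8 to 64.1 FPKM against 30 to 46.1 FPKM, with overlap (-0.47 ± 0.14, adjusted p = 0.38). Norm F/F mice held 8.88, 7.86, 7.76 and 10 FPKM, and Norm ChMKO mice 3.15 to 3.51 FPKM (log2 fold change -1.16 ± 0.09, adjusted p = 0.0066). The values count the whole gene, and transcripts that lack only the deleted exon are still counted, as are those from cells without Cre. In Hypo, Mlxipl was 7.98 to 8.76 FPKM in the controls and 2.38 to 3.24 FPKM with the deletion (-1.27 ± 0.10, adjusted p = 0.0030), and in HFrD it was 8.19 to 10.8 FPKM and 4.25 to 4.49 FPKM (-0.92 ± 0.07, adjusted p = 0.0031). AAV-MLXIPL raised Mlxipl from 10.3 to 12.3 FPKM in AAV-CON to 52.9 to 101 FPKM (log2 fold change 2.74 ± 0.14, adjusted p = 2.5e-06). C2C12 CON libraries held 0, 0.02, 0 and 0 FPKM of Mlxipl, and OE libraries 12.8, 13.6, 13.4 and 13.8 FPKM. In the overexpression tables, reads from the introduced copy count as Mlxipl. Mlxip was present throughout, at 7.08 to 8.82 FPKM in C2C12 and at 9.92 to 20.5 FPKM in muscle. It did not pass the test in any comparison of genotypes, and it was 0.39 ± 0.10 higher on the log2 scale in AAV-MLXIPL than in AAV-CON (adjusted p = 1.00). With AAV libraries of the same number as a block, the standard error of this Mlxip difference was 0.054 and its adjusted p 0.12. Mlx, the shared partner, was 2.25 to 6.36 FPKM in chow and treated muscle, 3.67 to 5.55 FPKM in AAV muscle and 18 to 21.1 FPKM in C2C12, and was not called between genotypes or with overexpression.

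**Figure D1:**
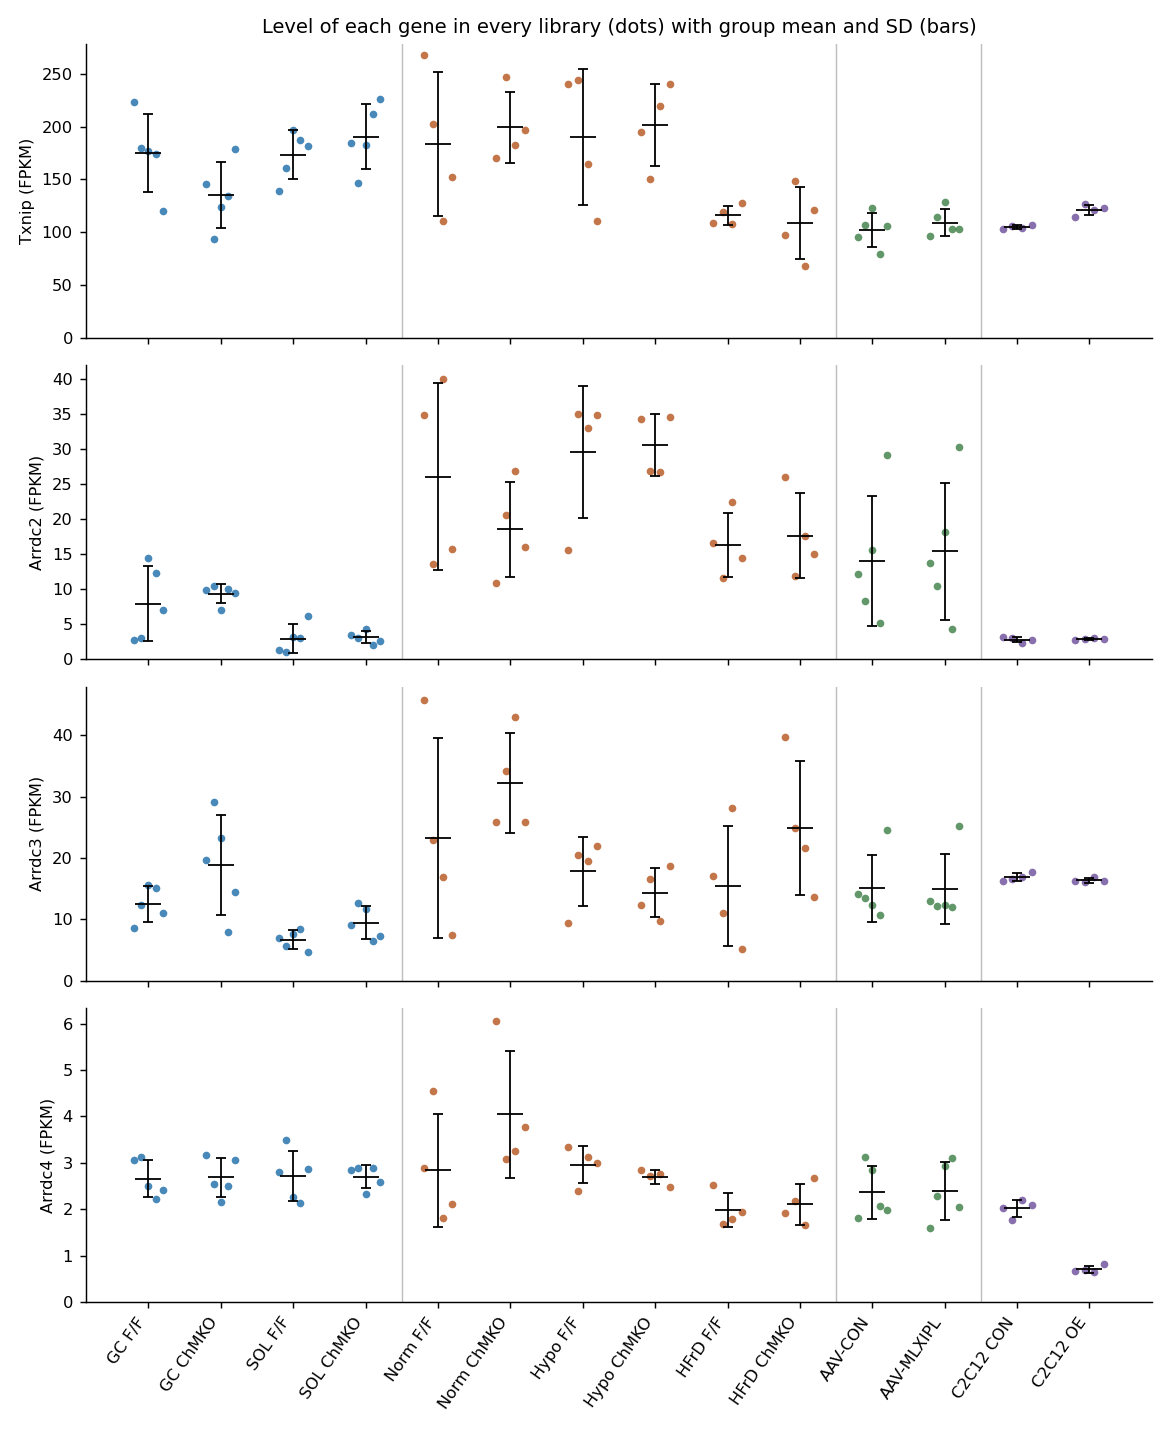
Level of Txnip, Arrdc2, Arrdc3 and Arrdc4 (vertical axes, FPKM) in the 14 groups (horizontal axis), with 1 dot per library and bars for the group mean and SD; vertical lines separate the 4 tables, which were normalised separately. Txnip lies between 67.5 and 268 FPKM throughout, HFrD groups lie low for Txnip and Arrdc4, Arrdc2 and Arrdc3 spread widely within groups, and Arrdc4 is lowest in C2C12 OE.

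Txnip was the most abundant of the 4 genes in every group. Its mean in GC of chow-fed F/F mice was 175 ± 36.7 FPKM (SD, n = 5), and its level in the other F/F groups of normally fed mice was close to this. SOL F/F held 173.4 ± 23.2 FPKM, Norm F/F 183.4 ± 68 FPKM (SD, n = 4) and Hypo F/F 189.8 ± 64.5 FPKM. These neighbours differed by less than their SD. The lowest muscle means were AAV-CON (101.8 ± 16.2), HFrD ChMKO (108.5 ± 34.4), AAV-MLXIPL (108.9 ± 12.5) and HFrD F/F (115.9 ± 9.22). Levels of different tables were not normalised together, so that the order between tables is a description.

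Loss of ChREBP did not shift Txnip past the test in either muscle or under any treatment. In chow GC, Txnip was 224, 180, 177, 174 and 120 FPKM in F/F mice and 145, 93.3, 124, 134 and 179 FPKM in ChMKO mice. The ChMKO values were lower in the mean, but both groups shared the range from 120 to 179 FPKM (log2 fold change -0.37 ± 0.18, adjusted p = 1.00). In this comparison 0.0236% of genes were called (3 of 12724), and no member was among them. In SOL, Txnip was 139, 161, 197, 187 and 182 FPKM in the F/F mice, against 184, 147, 183, 212 and 226 FPKM with the deletion. The difference was 0.13, the groups overlapped, and 0.0225% of genes were called (3 of 13348), again without a member. The difference between these genotype effects, tested with the mouse as a random effect, was 0.50 ± 0.23 for Txnip (adjusted p = 0.81), where 0.00759% of genes were called.

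Under treatment the genotypes also overlapped for Txnip. Norm F/F mice held 268, 202, 110 and 153 FPKM, and Norm ChMKO mice 171, 247, 183 and 196 FPKM. Hypo F/F mice held 240, 244, 165 and 110 FPKM, and Hypo ChMKO mice 195, 150, 220 and 241 FPKM. In both treatments the F/F mice included the highest and the lowest value, and all ChMKO values fell between them. The genotype difference of Txnip was 0.18 in Norm, 0.13 in Hypo and -0.15 in HFrD. The shares of all genes called between genotypes were 0.00922% in Norm, 0.00941% in Hypo and 0.019% in HFrD, with no member in any of these calls.

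Between muscles, Txnip passed the test in ChMKO mice and not in F/F mice. In ChMKO mice it was higher in SOL than in GC (log2 fold change 0.51 ± 0.16, adjusted p = 0.019), whereas in F/F mice the difference was 0.0032. In ChMKO 57.9% of genes were called between the muscles and in F/F 50.4%, so a call is frequent in this comparison. After rescaling of the libraries by their median ratio the ChMKO difference was 0.35 and no longer passed (adjusted p = 0.075), in a fit without the mouse. SOL was above GC in each of the 5 ChMKO mice, and with the mouse as a block and no rescaling the adjusted p was 8.9e-04. In ChMKO this pairing of the muscles rests on the numbers in the labels alone. The interaction given above did not pass the test, and the difference between genotypes in this respect was therefore not established. SOL libraries also held more endothelial and red blood cell transcripts. Of 5 endothelial and 5 red blood cell markers all were higher in SOL in both genotypes, and the part of these cells in the Txnip values was not tested. In tissue libraries, a change in the number of cells of a type and a change in RNA per cell cannot be told apart.

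Among the Norm, Hypo and HFrD groups, Txnip was lowest in the 2 HFrD groups. HFrD mice were fed for 3 months, and the age of the Norm mice at collection was not stated. Diet and a possible difference in age or cohort cannot be told apart in HFrD against Norm. HFrD ChMKO mice held 97.1, 148, 67.5 and 121 FPKM, all below the lowest Norm ChMKO mouse at 171 FPKM (log2 fold change -0.91 ± 0.22, adjusted p = 0.0051). Of all genes, 57.2% had groups that did not overlap in this ChMKO comparison. HFrD F/F mice held 109, 119, 108 and 127 FPKM, and 3 of the 4 Norm F/F mice lay above them while 1, at 110 FPKM, lay among them (log2 fold change -0.58 ± 0.24, adjusted p = 0.20). In ChMKO 64% of all genes were called between HFrD and Norm (6868 of 10733). Of these 4790 were lower, and after rescaling of the libraries by their median ratio 2665 of 5733 were lower. In F/F 0% were called (0 of 10707, with 2531 at an unadjusted p under 0.05). Voom on the recovered reads also called 0 in F/F, and 220 passed with all groups in 1 fit. The interaction of genotype and diet was -0.33 ± 0.35 for Txnip (adjusted p = 0.66), and it called 0% of genes (0 of 10734, with 1107 at an unadjusted p under 0.05 and 0 by voom). Without the Norm F/F mouse at 202 FPKM of Txnip the interaction called 1093 genes, and no member was among them. The fall in ChMKO was therefore not shown to differ from the difference in F/F.

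Markers of other cells also differed between HFrD and Norm in the same libraries. In HFrD ChMKO against Norm ChMKO, the fibroblast markers were lower for 4 of 5 genes, endothelial markers for 5 of 5, the tested macrophage markers for 4 of 4 and red blood cell markers for 5 of 5. The summed fibroblast markers were 128.9 to 155.6 FPKM in HFrD ChMKO and 240.3 to 517.2 FPKM in Norm ChMKO. The summed endothelial markers were 43.48 to 53.2 FPKM against 81.66 to 93.36 FPKM. Of 11 skeletal muscle markers, 4 were higher, among them Myh7 (2.36), the slow myosin heavy chain, Ttn (2.13) and Neb (2.05), and 3 were lower, Acta1 (-0.70), Ckm (-0.67) and Des (-0.29). In F/F mice the summed fibroblast markers were also lower in HFrD, at 126.3 to 145.7 FPKM against 183.8 to 428.9 FPKM. Of 13 clock genes 5 were higher and 4 lower in HFrD ChMKO, with Nr1d2 at 1.18 and Bhlhe41 at -0.79, and of 17 glucocorticoid and FoxO readouts 7 were higher and 3 lower, with Fbxo32 at 1.31 and Cdkn1a at -0.93. The part of these cells and genes and of the depth in the Txnip and Arrdc4 values was not tested.

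Between Hypo and Norm no difference in Txnip was called in either genotype. The differences were 0.055 in F/F (95% interval -0.70 to 0.81) and 0.0083 in ChMKO (95% interval -0.34 to 0.36). In F/F mice 0% of genes were called (0 of 10740, with 411 at an unadjusted p under 0.05 and 0 by voom), and in ChMKO mice 0.89% (95 of 10676). The interaction of genotype and hypoxia was -0.047 for Txnip, and it called 0% of genes (0 of 10751, with 132 at an unadjusted p under 0.05 and 0 by voom).

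In injected GC, no difference in Txnip was called with the added ChREBP. AAV-CON libraries 1, 3, 4, 7 and 8 held 94.9, 107, 123, 78.9 and 106 FPKM, and AAV-MLXIPL libraries of the same numbers 96.7, 114, 128, 103 and 103 FPKM. Txnip was higher with AAV-MLXIPL in 4 of the 5 numbers and lower in number 8. The groups overlapped almost fully (log2 fold change 0.10, 95% interval -0.14 to 0.34, adjusted p = 1.00), and 0.00904% of genes were called (1 of 11058, which was Mlxipl). With the shared number as a block the standard error fell to 0.058 and no member was called.

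In C2C12 myotubes Txnip was higher with ChREBP. CON libraries held 103, 106, 103 and 106 FPKM, and OE libraries 114, 126, 121 and 123 FPKM, with no overlap (log2 fold change 0.21 ± 0.03, adjusted p = 7.1e-04). The means were 104.7 ± 1.58 FPKM in CON and 121 ± 5.1 FPKM in OE (SD, n = 4), and the difference was larger than the spread between libraries. In this comparison 30.5% of genes were called (3647 of 11972), and 31.3% had groups that did not overlap. Repeat libraries of 1 line per condition measure the spread within that line only. The interval of the AAV difference included the C2C12 difference of 0.21.

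**Figure D2:**
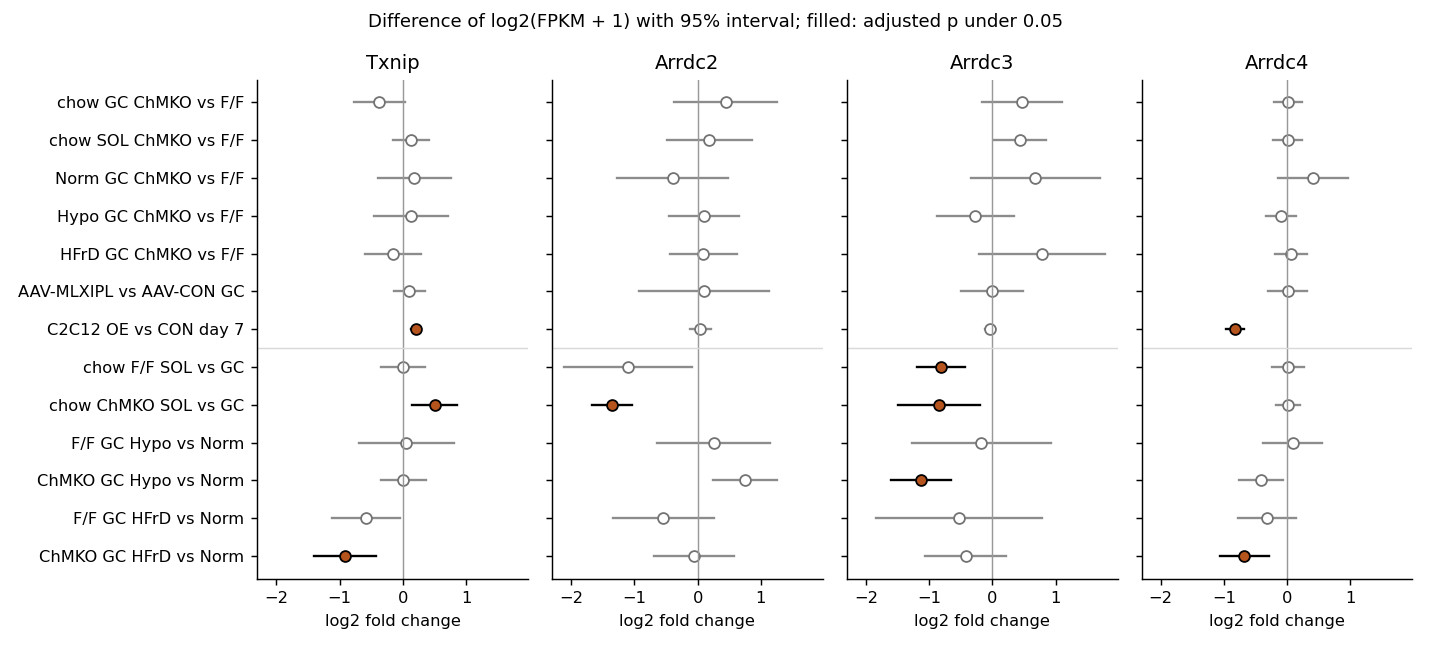
Difference of each gene in the 13 comparisons (rows), as a log2 fold change of FPKM + 1 (horizontal axes) with its 95% interval; filled points have an adjusted p under 0.05, and the rows above the grey line compare ChREBP levels. Of the 9 filled points, 2 lie above the line, both in C2C12, where 30.5% of all genes were called: Txnip at 0.21 and Arrdc4 at -0.83.

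Arrdc4 was the least abundant member in muscle, with group means from 1.981 FPKM in HFrD F/F to 4.044 FPKM in Norm ChMKO. Arrdc2 was the only member that came near it, in SOL. On chow the Arrdc4 means of the 4 groups lay between 2.661 ± 0.407 and 2.712 ± 0.544 FPKM (SD, n = 5), which is within the spread of any of them. The genotype differences of Arrdc4 were 0.011 in GC and 0.0067 in SOL, and SOL differed from GC by 0.015 in F/F and by 0.011 in ChMKO. Over the 20 chow libraries it ran only from 2.13 to 3.5 FPKM.

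Arrdc4 was lower in HFrD than in Norm in ChMKO mice. Norm ChMKO mice held 6.06, 3.08, 3.26 and 3.78 FPKM, and HFrD ChMKO mice 1.91, 2.17, 1.66 and 2.67 FPKM. All HFrD values lay below all Norm values (log2 fold change -0.68 ± 0.17, adjusted p = 0.0071), and 57.2% of all genes had groups that did not overlap. The fibroblast markers of these libraries were lower as well, with Col1a1 at -2.71, Col1a2 at -2.24 and Col3a1 at -1.97, and their part in the Arrdc4 values was not tested. Txnip and Arrdc4 were called as lower in HFrD ChMKO, and Arrdc2 (-0.056) and Arrdc3 (-0.42, adjusted p = 0.22) were not called. Of all genes 64% were called in this comparison, so that these calls do not set the 2 members apart. In the same libraries Mlxipl rose by 0.33 (adjusted p = 3.9e-04), Mlx fell by 0.35 (adjusted p = 0.0017, and by 0.18 with adjusted p = 0.045 after rescaling) and Mlxip differed by -0.10 (adjusted p = 0.52). In F/F mice the diet difference of Mlx was -0.42 (adjusted p = 0.15). Hypo ChMKO mice held 2.84, 2.72, 2.75 and 2.48 FPKM of Arrdc4, all below Norm ChMKO as well, but this difference did not pass the test over all genes (-0.41 ± 0.16, adjusted p = 0.25). By an exact two-sided permutation test of this gene alone its p was 0.0286, the smallest that 4 against 4 libraries can give, and 9.81% of all genes had groups that did not overlap.

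In F/F mice the values of Arrdc4 overlapped between treatments. Norm F/F mice held 2.88, 4.54, 1.81 and 2.11 FPKM, Hypo F/F mice 3.34, 2.39, 3.13 and 2.99 FPKM and HFrD F/F mice 2.52, 1.68, 1.79 and 1.94 FPKM. The diet difference in F/F was -0.32 (adjusted p = 0.31) and the hypoxia difference 0.092. The interactions were -0.35 ± 0.28 with diet (adjusted p = 0.55) and -0.50 ± 0.27 with hypoxia (adjusted p = 1.00), so that no difference between genotypes was established. Norm ChMKO had the highest mean of Arrdc4 and included its highest value, 6.06 FPKM.

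With ChREBP in C2C12, Arrdc4 fell while Txnip rose. CON libraries held 2.03, 1.77, 2.19 and 2.09 FPKM of Arrdc4, and OE libraries 0.66, 0.68, 0.65 and 0.82 FPKM. The lowest CON library was above the highest OE library by more than the range of either group (log2 fold change -0.83 ± 0.07, adjusted p = 6.2e-06). The means were 2.02 ± 0.179 and 0.7025 ± 0.0793 FPKM (SD, n = 4). The pseudocount of 1 compresses the change of a gene at this level, and with a pseudocount of 0.1 the log2 fold change was -1.40. In GC with AAV-MLXIPL, Arrdc4 was 1.6, 2.29, 2.92, 3.1 and 2.05 FPKM against 1.81, 3.12, 2.84, 2.06 and 1.98 FPKM in AAV-CON. There the 2 ranges were nearly the same (0.011, 95% interval -0.30 to 0.32), and this interval did not include the C2C12 difference.

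C2C12 CON and OE also differed in other transcripts. Of 5 fibroblast markers 4 were lower in OE, with Col1a1 at -0.53, and their sum was 3080 to 3283 FPKM in OE and 3403 to 3552 FPKM in CON. Mlxip was slightly lower in OE, at 7.42, 7.63, 7.08 and 7.63 FPKM against 8.35, 8.1, 8.44 and 8.82 FPKM (-0.16 ± 0.04, adjusted p = 0.015). Of 10 skeletal muscle markers tested, 7 were higher in OE, among them Ttn (0.83), Neb (0.52) and Tnnt3 (0.49), and 2 lower, Myh1 (-0.50) and Myh4 (-0.32). Of 5 myoblast markers 3 were higher, among them Myog (0.67) and Mymk (0.40), which drive differentiation and fusion, and all 3 smooth muscle markers tested were higher, with Cnn1 at 3.65 and Acta2 at 0.65. The part of these differences in the Arrdc4 and Txnip values was not tested.

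Arrdc2 differed by muscle and by mouse more than by ChREBP. In chow GC of ChMKO mice it was 9.87, 10.4, 7.06, 9.99 and 9.47 FPKM, and in SOL of the same mice 3.44, 3.04, 4.3, 2.05 and 2.59 FPKM. Every SOL value lay below every GC value (log2 fold change -1.36 ± 0.14, adjusted p = 1.1e-05), and 43% of all genes had groups that did not overlap. In F/F mice 57, 58, 69, 70 and 71 GC held 2.71, 3.05, 14.4, 12.3 and 6.98 FPKM and SOL 1.27, 0.99, 3.2, 3.05 and 6.09 FPKM. GC was above SOL in each of the 5 F/F mice, but the groups overlapped because mice 57 and 58 were low in both muscles (-1.10 ± 0.46, adjusted p = 0.065). With the mouse as a block, since both muscles came from the same animals, the difference passed the test (adjusted p = 0.0071).

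The spread of Arrdc2 between mice was wide beside its genotype differences. Its coefficient of variation in GC of F/F mice was 67.5%, and the genotype difference was 0.44 in GC (adjusted p = 1.00) and 0.19 in SOL (adjusted p = 0.85). In the second experiment Norm F/F mice held 34.9, 13.6, 40 and 15.7 FPKM and Norm ChMKO mice 10.8, 20.6, 26.8 and 16 FPKM. The F/F values fell into 2 high and 2 low mice, with ChMKO values between and below them. Hypo ChMKO mice held 34.3, 26.8, 26.8 and 34.5 FPKM, near or above the highest Norm ChMKO mouse (0.75 ± 0.23, adjusted p = 0.16). Hypo F/F mice held 15.5, 35, 33 and 34.9 FPKM, where 3 values stood together and 1 was low. The HFrD means of Arrdc2 were 16.26 ± 4.57 FPKM for F/F mice, and ChMKO mice averaged 17.62 ± 6.08 FPKM (SD, n = 4), without a call in either genotype.

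In the AAV libraries Arrdc2 followed the library number. AAV-CON libraries 1, 3, 4, 7 and 8 held 12.1, 8.32, 15.6, 5.11 and 29.1 FPKM, and the AAV-MLXIPL libraries 13.7, 10.4, 18.2, 4.26 and 30.2 FPKM. Number 8 was highest and number 7 lowest in both groups, and all 5 numbers had the same order. The labels do not state what a number stands for. The difference between the vectors was 0.10 with a 95% interval of -0.93 to 1.13, and with the number as a block its standard error was 0.071 and it was still not called. In C2C12, Arrdc2 was 2.775 ± 0.397 FPKM in CON and 2.873 ± 0.114 FPKM in OE (SD, n = 4), a difference of 0.043.

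**Figure D3:**
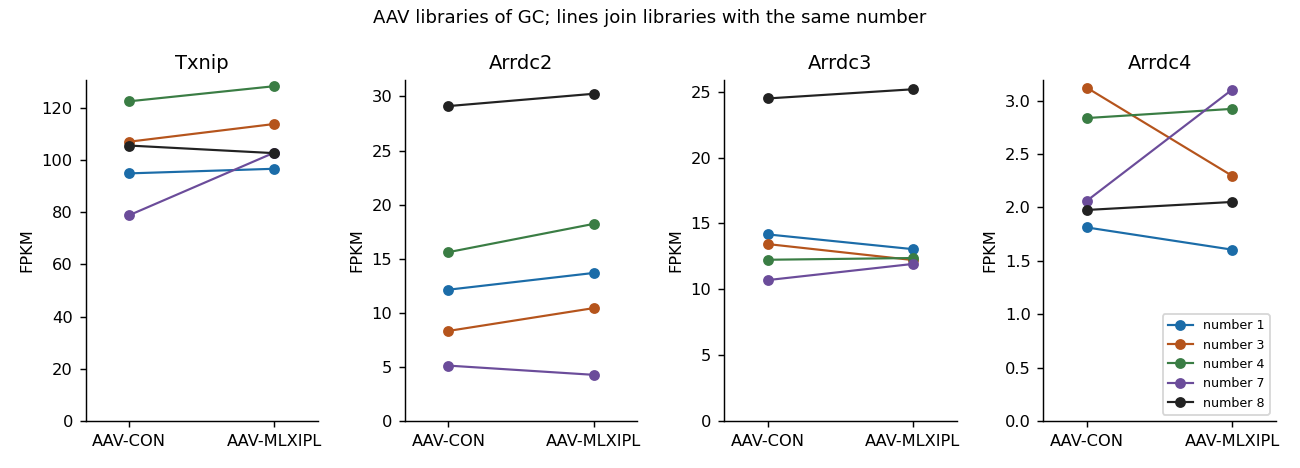
Levels of the 4 genes (vertical axes, FPKM) in AAV-CON and AAV-MLXIPL libraries of GC, with lines joining libraries of the same number. Arrdc2 runs from 4.26 to 30.2 FPKM across numbers while the lines stay nearly level, and number 8 stands apart for Arrdc3 in both groups.

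Arrdc3 also separated the muscles. In GC of F/F mice it was 8.5, 12.3, 15.6, 15.1 and 11 FPKM and in SOL 7, 5.67, 7.52, 8.46 and 4.65 FPKM. The lowest GC value was just above the highest SOL value (log2 fold change -0.81 ± 0.18, adjusted p = 0.0029), and 35.9% of genes had groups that did not overlap. In ChMKO mice GC held 19.7, 29.1, 23.2, 7.89 and 14.4 FPKM and SOL 9.1, 12.7, 11.7, 6.49 and 7.31 FPKM. GC was higher in each of the 5 mice, although the groups overlapped through mouse 72 at 7.89 FPKM (-0.85 ± 0.30, adjusted p = 0.028). This call was lost in 5 of 10 repeats that each left out 1 library. With the mouse, paired by the labels alone, as a block the adjusted p was 0.0011. Against Mlxipl these 2 genes ran in the other direction, since SOL exceeded GC in Mlxipl by 1.07 in F/F and by 1.23 in ChMKO (adjusted p = 6.2e-05 and 1.7e-05). Mlxip was lower in SOL, as these 2 genes were, by 0.37 in ChMKO (adjusted p = 0.0024). In F/F it was lower by 0.30 (adjusted p = 0.084, and 0.041 with the mouse as a block). By PCR in wild-type mice, the study described ChREBP-alpha as comparable among muscles, and ChREBP-beta as mainly an adipose transcript. Summed adipocyte markers had a higher median in SOL than in GC. The medians were 188.2 against 36.97 FPKM in F/F and 94.46 against 54.45 FPKM in ChMKO, with overlap. The part of adipocytes in the Mlxipl values was not tested.

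The genotype difference of Arrdc3 was positive in 4 of the 5 muscle comparisons, but none passed the test. It was 0.47 in chow GC, 0.43 ± 0.19 in chow SOL (adjusted p = 0.49), 0.68 in Norm, -0.27 in Hypo and 0.78 ± 0.45 in HFrD (95% interval -0.22 to 1.79). The GC and SOL values come from the same mice. In HFrD GC, F/F mice held 17, 11.1, 28.2 and 5.19 FPKM and ChMKO mice 39.7, 24.9, 21.6 and 13.6 FPKM, with much overlap.

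In hypoxia Arrdc3 fell in ChMKO mice. Norm ChMKO mice held 25.8, 34.2, 43 and 25.8 FPKM and Hypo ChMKO mice 12.4, 16.5, 9.68 and 18.6 FPKM. The groups did not overlap (log2 fold change -1.13 ± 0.21, adjusted p = 0.042), and the call was lost in 6 of 8 repeats that each left out 1 library. With all libraries it was also lost without a filter on low genes (adjusted p = 0.128) and in 1 fit for all groups (adjusted p = 0.208). The F/F mice, at 45.8, 22.9, 16.9 and 7.45 FPKM in Norm and 9.43, 20.4, 19.4 and 21.9 FPKM in Hypo, overlapped (-0.17). Norm F/F covered nearly the whole range of this gene. The interaction was -0.95 ± 0.57 (adjusted p = 1.00), so the fall was not shown to be particular to ChMKO. In the same ChMKO comparison 4 of 13 clock genes were called, with Nr1d2 at 0.66 and Bmal1 at -0.86, and of the glucocorticoid and FoxO readouts Foxo1 was higher by 1.28 and Per1 by 0.86. Their part in the Arrdc3 values was not tested, and the collection time was not given.

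Overexpression left Arrdc3 near its control level. In AAV-CON it was 14.2, 13.4, 12.2, 10.7 and 24.5 FPKM and in AAV-MLXIPL 13, 12.2, 12.4, 11.9 and 25.2 FPKM, where library 8 was highest in both groups (-0.0080, 95% interval -0.50 to 0.49). In C2C12 it was 16.81 ± 0.64 FPKM in CON and 16.32 ± 0.351 FPKM in OE (SD, n = 4), a difference of -0.040. The myotube levels of Txnip, Arrdc2 and Arrdc3 lay inside their muscle range, and Arrdc4 in OE lay below its own.

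**Figure D4:**
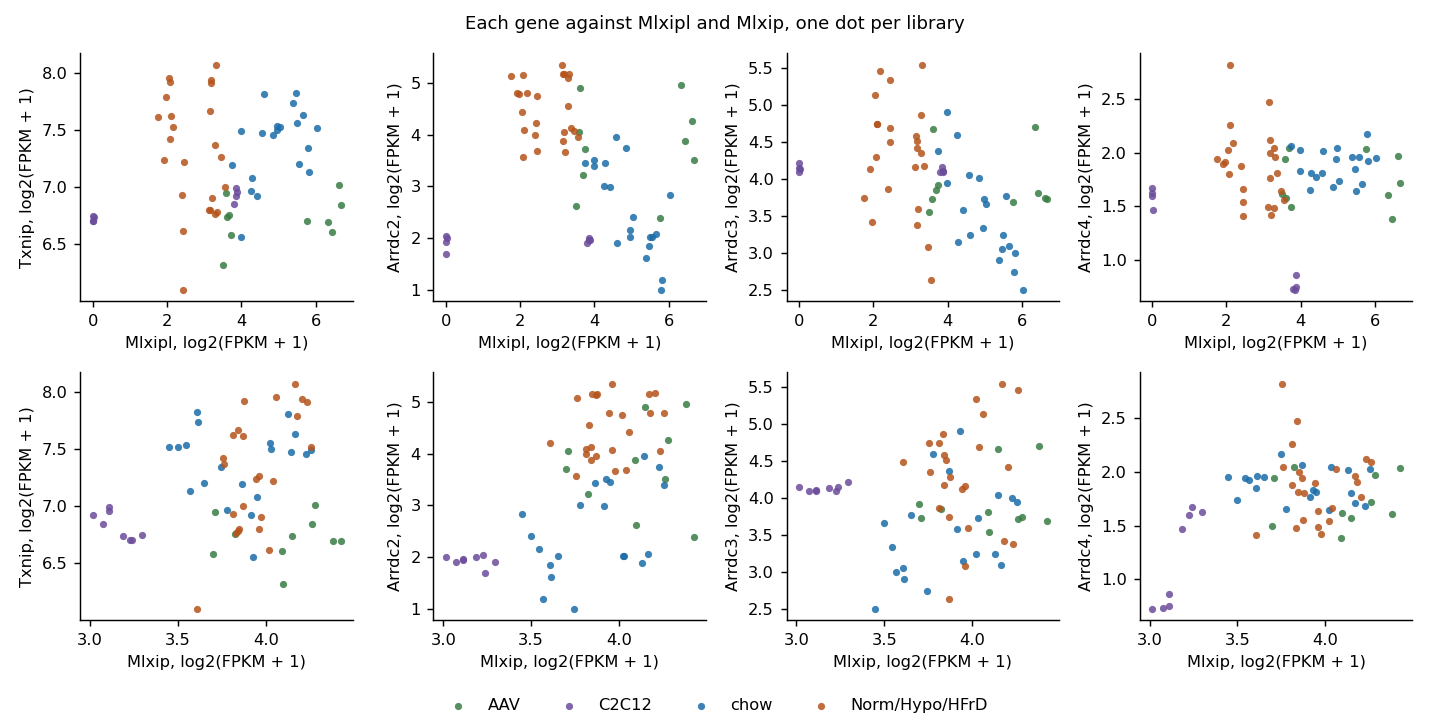
Each member (vertical axes) against Mlxipl (upper row) and Mlxip (lower row), all as log2(FPKM + 1), with 1 dot per library coloured by table. Within the AAV and C2C12 tables the control and overexpressing libraries form separate Mlxipl clusters, whose vertical ranges overlap for Arrdc2 and Arrdc3, while in C2C12 Arrdc4 is set apart, at 0.65 to 0.82 FPKM in OE and 1.77 to 2.19 FPKM in CON.

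Within groups, the members were compared with Mlxipl and Mlxip of the same libraries after the mean of each group had been removed. There were 40 such relations, from 4 members, 2 factors and 5 sets of libraries. Their Pearson r ran from -0.52 to 0.85, and none passed the adjustment for 40 relations while 1 had an unadjusted permutation p under 0.05. That was Txnip with Mlxip over the 24 Norm, Hypo and HFrD libraries, where r was 0.55 (permutation p = 0.025, adjusted p = 0.92) and Spearman rho 0.50 (permutation p = 0.048, adjusted p = 0.99). Without the 2 libraries farthest from the median of Mlxip, r was 0.59. After rescaling of the libraries by their median ratio r was 0.35 (permutation p = 0.16) and rho 0.33 (permutation p = 0.19), so that this relation depended on the scaling. Arrdc4 with Mlxip over the same libraries went from an r of -0.29 (permutation p = 0.24) to -0.52 after rescaling (permutation p = 0.038, adjusted p = 0.87), and to -0.27 without the 2 farthest libraries. For Txnip with Mlxip r was 0.62 in chow GC, 0.36 in chow SOL, -0.30 in AAV and 0.33 in C2C12. In C2C12, where CON libraries held 0 to 0.02 FPKM of Mlxipl, Txnip with Mlxipl had the highest r, 0.85 (permutation p = 0.083). Without the 2 farthest libraries it was 0.65. These values share the normalisation of their libraries.

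Among the members themselves, 30 relations were examined and none passed the adjustment. Arrdc2 and Arrdc3 had an r of 0.60 over the 24 libraries (permutation p = 0.010, adjusted p = 0.25; rho 0.66, permutation p = 0.0033, adjusted p = 0.098). Without the 2 farthest libraries r was 0.64. In the 10 AAV libraries their r was 0.79. No p is given there, since libraries of the same number resembled each other and are not independent, and in chow GC, chow SOL and C2C12 it was 0.31, 0.087 and -0.19. Arrdc2 and Arrdc4 had an r of -0.55 over the 24 libraries (permutation p = 0.047, adjusted p = 0.47), and without the 2 farthest libraries it was -0.43.

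Other genes of the pathway were read from fixed lists. The list of other glucose-response targets of the Mondo factors held 20 genes, such as Fgf21, a hormone induced by sugar in liver, and Klf10, a transcriptional repressor. With AAV-MLXIPL none of the 16 tested genes was called (median 0.20, with 2 at an unadjusted p under 0.05), beside 0.00904% of all genes and a median of 0.025. In C2C12, 6 of 15 were higher and 3 lower, beside 30.5% of all genes. The higher ones included Fgf21 (0.90, adjusted p = 8.4e-05), Rgs16 (0.76), a regulator of G-protein signalling, and Mid1ip1 (0.43), a partner of acetyl-CoA carboxylase. The lower ones were Tkfc (-0.21), Fasn (-0.21), the fatty acid synthase, and Scd1 (-0.18). Txnip thus lay with the genes that rose in C2C12 and Arrdc4 with those that fell.

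In HFrD ChMKO against Norm ChMKO, 7 of 15 of these genes were lower and none higher, beside 64% of all genes called. Klf10 (-0.94, adjusted p = 0.011), Thrsp (-0.90), a lipogenic regulator, and Gpd1 (-0.82), a glycerol phosphate dehydrogenase, fell with Txnip and Arrdc4. In hypoxic ChMKO mice 1 of 16 was called, Klf10 at -1.13. Between SOL and GC, 6 were higher and 4 lower of 17 in each genotype, beside 50.4% of all genes called in F/F. Pfkfb3 (-3.73 in F/F), which drives glycolysis, and Gpd1 (-2.92) were lower in SOL and Rgs16 (0.91) was higher. No gene of the list was called between genotypes in any muscle or treatment.

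**Figure D5:**
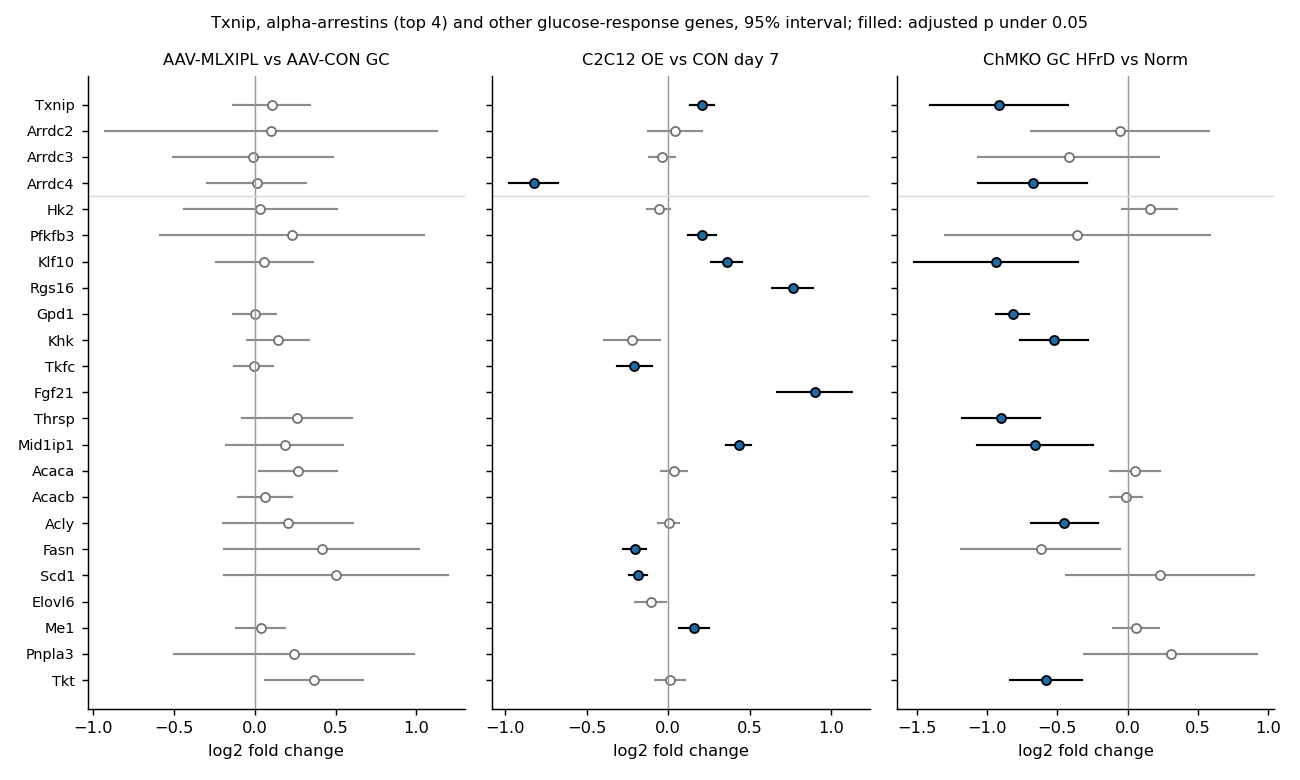
Txnip, Arrdc2, Arrdc3 and Arrdc4 (top 4 rows) and the other glucose-response genes (lower rows) in AAV-MLXIPL against AAV-CON, C2C12 OE against CON and HFrD ChMKO against Norm ChMKO, as log2 fold changes (horizontal axes) with 95% intervals; filled points have an adjusted p under 0.05 and genes below the filter are left blank. No point is filled in AAV, Fgf21 (0.90) and Arrdc4 (-0.83) are the extremes in C2C12, and all filled points lie below 0 in HFrD ChMKO.

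The partners of the members were followed in the same way. Of 8 NEDD4 family ligases, 4 were higher and 2 lower in HFrD ChMKO than in Norm ChMKO. Wwp1, which binds alpha-arrestins and marks cargo with ubiquitin, rose by 1.43, and Smurf1 fell by 0.34. Among the cargo proteins and regulators, Prkaa2, a catalytic subunit of AMPK, rose by 0.61 and Insr, the insulin receptor, by 0.35. Slc2a4, which encodes GLUT4, fell by 0.72. In the thioredoxin system, which TXNIP inhibits, 6 of 8 genes were lower, among them the mitochondrial thioredoxin Txn2 (-0.59) and the peroxiredoxins Prdx2 (-0.56) and Prdx3 (-0.55). The median of all genes in this comparison was -0.17, and 64% of them were called.

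In C2C12, beside 30.5% of all genes called, 3 of 8 ligases and 2 of 8 genes of the thioredoxin system were called. Of the ligases Smurf1 was higher (0.59), while Wwp2 (-0.20) and Nedd4l (-0.15) were lower, and of the thioredoxin system Txnrd2 (-0.19) and Prdx1 (-0.18) were lower. Ddit4, a stress-induced inhibitor of mTORC1, was the only cargo or partner gene called (0.13). Of the other arrestins only Arrb2, a beta-arrestin, was called (0.22). No gene of these lists was called with AAV-MLXIPL.

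Of the 18 glucocorticoid and FoxO readouts, 4 were higher and 5 lower in SOL than in GC of ChMKO mice, beside 57.9% of all genes called, and 3 were higher and 2 lower in F/F mice, beside 50.4%. The list thus moved both ways, while Arrdc2 and Arrdc3 were lower in SOL. In ChMKO mice Tsc22d3 (-1.53), a classical glucocorticoid target, Sgk1 (-0.85) and Cebpd (-0.67) were lower in SOL, and Cdkn1a (0.90), Mt1 (0.39) and Klf15 (0.37) were higher. Ddit4 was lower by 1.70. In F/F mice Tsc22d3 was lower by 1.31 and Sgk1 by 0.60, and Pdk4 was higher by 1.14, Cdkn1a by 0.98 and Zbtb16 by 0.46.

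Over the 24 Norm, Hypo and HFrD libraries, the genes most like each member by Pearson r of log2(FPKM + 1) were taken from 4497 genes (4498 for Arrdc4) whose mean reached 5 FPKM. For Txnip they were Mif4gd (0.887), Atp6v1e1 (0.883), Prr13 (0.881) and Tmem258 (0.875), and with group means removed these lay between 0.766 and 0.824. In the chow GC libraries only Atp6v1e1 kept a high value (0.652), and Prr13 (-0.259) and Tmem258 (-0.248) turned. For Arrdc4 they were Col6a3 (0.889), Serpinh1 (0.854), Col6a2 (0.834), Lum (0.833) and Ctsk (0.828), of which Col6a3, Col6a2 and Lum encode matrix proteins and Serpinh1 a collagen chaperone. With group means removed these 5 lay between 0.72 and 0.80, and in chow GC between 0.32 and 0.63. For Arrdc3 the nearest was Tbc1d1 (0.75), a regulator of GLUT4 traffic, with 0.633 after removal of group means and 0.154 in chow GC. For Arrdc2 it was Acvr1b (0.661), an activin receptor, with 0.489 and 0.114 by the same measures. The libraries share depth and cell make-up, and these values are a description.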

How the data were processed

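The authors trimmed reads, aligned them and deposited 4 tables of FPKM per gene (chow on RefSeq GRCm38, Norm, Hypo and HFrD on GRCm39, AAV and C2C12 by NCBI gene ID). The submitters' processing notes name fastp 0.18.0, Bowtie2 2.2.8, HISAT2 2.1.0, StringTie 1.3.1 and RSEM, and tables were normalised separately. For AAV and C2C12 the unit was read from the values and the study's methods. Gene names were matched for 20918 of 21039 AAV rows and 17842 of 17898 C2C12 rows. The AAV table also holds the authors' group means, fold changes and p-values, which were not used.

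Each of 13 comparisons was fitted in R 4.3.3 with limma 3.58.1 (lmFit, eBayes with trend) on log2(FPKM + 1) of the libraries compared, keeping genes whose mean reached 0.5 FPKM, two-sided, with Benjamini-Hochberg adjustment over all genes tested. The 3 interactions used the same scale, and the muscle interaction had the mouse as a random effect (duplicateCorrelation, statmod 1.5.0). Relations between genes were tested by permuting libraries within groups, exactly or with 100000 resamples (Python 3.11.15, numpy 2.4.6). Alternatives were a pseudocount of 0.1, a minimum of 5 FPKM or no filter, rescaled libraries, 1 fit for all groups of a table, a replicate block, exact permutation tests and leaving out each library. For the 24 Norm, Hypo and HFrD libraries, values below 200 reads were whole multiples of 1 read in 100% of cases (within 0.02), and voom on these recovered reads called 6910 genes between HFrD and Norm in ChMKO. Adding both chow entries of Arrdc2, and joining rescaling with 1 fit, were chosen after seeing the data. Scripts were tested on simulated data.

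GC and SOL of 1 number come from the same mouse by the labels, and were paired on that ground (correlation of deviations -0.017 to 0.32 in F/F and 0.021 to 0.049 in ChMKO). The library of the same number was the best match in 4 of 5 pairs in F/F and in 1 of 5 in ChMKO. In ChMKO the pairing therefore rests on the labels and was not borne out by the data. The AAV numbers paired samples by the data alone, with 0.21 to 0.49 in all 5 pairs. A SOL F/F library carries number 59 in its title and 69 in its column, and it was taken as mouse 69. Where the labels do not say that libraries came from separate animals or cultures, p-values measure only the spread between libraries.

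The 4 members, Mlxipl, Mlxip and Mlx were named whatever their values, and from each list at most 3 called genes per direction and comparison, by the size of the change. The members and lists were chosen with earlier results of these data known. Some genes of the lists are not reported here.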

Additional observations from a re-analysis of the deposited data

Results flagged for a closer look

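In 98 sets of 1 gene in 1 group of 4 or 5 libraries, 7 held a library far from the rest by Dixon's criterion at the 95% level, which chance meets in about 1 in 20 sets. Arrdc2 in 1 Hypo F/F mouse was 15.54 FPKM, below the next at 33.04 FPKM. Arrdc2 in chow GC of ChMKO mouse 61 was 7.058 FPKM, below the next at 9.468 FPKM. Arrdc3 was 24.49 FPKM in AAV-CON library 8, where the next was 14.16 FPKM, and 25.18 FPKM in AAV-MLXIPL library 8, where the next was 13.04 FPKM. The same number stood apart with both vectors, and it was also highest for Arrdc2.

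Among the Mondo factors and their partner, Mlx was 4.493 FPKM in 1 Norm ChMKO mouse, below the next at 5.468 FPKM. Mlxipl was 0.02 FPKM in C2C12 CON library 2, where the others were listed at 0. Mlxipl was 8.76 FPKM in 1 Hypo F/F mouse, where the next was 8.05 FPKM. No difference between groups was found by a test of the interaction for any member.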

How the results depend on the processing

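Of 64 member differences 9 passed the threshold, and none of these changed sign under any alternative run. Apart from Arrdc3 in Hypo ChMKO, where 0.89% of all genes were called, they lay in comparisons with 30.5% to 64% of all genes called. Calls of members are therefore frequent there without any trait of the members. Of the 55 differences that did not pass, 25 changed sign in at least 1 alternative, the largest of them at 0.186. The lower Txnip and Arrdc4 in HFrD ChMKO, both C2C12 calls, the lower Arrdc2 in SOL than in GC of ChMKO and the lower Arrdc3 in SOL than in GC of F/F passed in every alternative run. Other calls moved, and except where fewer genes or libraries entered the fit the cause was not tested. Arrdc2 in F/F SOL against GC passed after rescaling (-1.24, adjusted p = 0.049), in 1 fit (-1.10, adjusted p = 0.0146), with both (-1.24, adjusted p = 0.0087), with the replicate block (-1.10, adjusted p = 0.0071) and with that block without mouse 69 (-0.91, adjusted p = 0.0216), and leaving out 1 library gave -1.36 to -0.84, with a call without GC F/F mice 57 or 58 or SOL F/F mouse 71. Arrdc3 in Hypo ChMKO was lost without a filter (-1.13, adjusted p = 0.128), in 1 fit (-1.13, adjusted p = 0.208) and in 1 fit with rescaling (-1.10, adjusted p = 0.190), and leaving out 1 library gave -1.26 to -0.97, called only without the Hypo ChMKO mice at 16.5 or 18.6 FPKM. Arrdc3 in ChMKO SOL against GC was lost without a filter (-0.85, adjusted p = 0.064), and leaving out 1 library gave -1.11 to -0.67, lost without GC mice 59, 60 or 61 or SOL mice 72 or 74. Txnip there was 0.35 after rescaling (adjusted p = 0.075) and 0.35 with 1 fit as well (adjusted p = 0.076). Arrdc4 in Hypo ChMKO (-0.41) passed by the exact permutation test of this gene alone, without adjustment over genes. Arrdc3 in HFrD ChMKO ran from -0.67 to -0.18 when 1 library was left out, and was called only without the HFrD mouse at 39.7 FPKM (adjusted p = 0.036).

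Rescaling moved the median of all genes by 0.135 in F/F and 0.115 in ChMKO between SOL and GC, and by -0.155 in ChMKO between HFrD and Norm. It changed the sign of 5 of 70 relations, to an r of 0.043 for Arrdc2 with Mlxip in AAV, 0.17 for Arrdc2 with Mlxipl, -0.035 for Arrdc3 with Txnip and -0.19 for Txnip with Mlxipl over the 24 libraries, and -0.028 for Arrdc4 with Mlxip in AAV. Counts of called genes that moved by over 1.5 times were 95 in Hypo ChMKO against Norm (6 without a filter to 360 with rescaling in 1 fit, and 10 to 129 when 1 library was left out), 0 in HFrD F/F (220 in 1 fit, 8 without the Norm F/F mouse at 202 FPKM of Txnip) and 0 in Hypo F/F (up to 6). A minimum of 5 FPKM left fewer genes and gave 3357 for HFrD ChMKO, 3319 for F/F and 3942 for ChMKO between muscles. Genotype counts of 1 to 3 moved between 0 and 9, and the 1 call of the muscle interaction became 0 to 2. The replicate block changed no other member call. The numbers of C2C12 did not pair samples (-0.094 to 0.18), and a block there gave 3357 calls in place of 3647.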
